A study of Mus musculus with 12 samples.

Results

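The genes described here are 44 mouse genes of the ciliary transition zone, of nephronophthisis, of the BBSome and of membrane protein delivery to the cilium. They were taken by symbol from a list, by a rule that uses no expression value, although the list was drawn up with earlier results of these data known. All 44 were found among the 47642 genes of the table, and all 44 were among the 18552 genes that could be tested. They were measured by RNA sequencing in mIMCD3 cells, a line of epithelial cells from the inner medullary collecting duct of mice that carry an SV40 early region transgene, which keeps the cells dividing in culture.

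The wild-type (WT) line, a Pkd1-/- clone and a Pkd2-/- clone, 1 clone per mutant, gave 4 libraries each, 12 in all. They were collected 4 days after the cells had reached full confluency. PKD1 and PKD2, the human forms of these genes, encode the polycystins and are mutated in autosomal dominant polycystic kidney disease. The Pkd1-/- clone carries deletions that remove most of the gene (GRCm38 chromosome 17, 24550055 to 24594963 and 24550106 to 24594903). In the Pkd2-/- clone a part of the gene is missing (chromosome 5, 104478281 to 104490878). The 4 libraries of a genotype came from separate dishes of the same line, so p-values measure only the spread between dishes. Of 6 dishes grown per genotype, the 4 with the highest RNA absorbance ratios were sequenced. Clone, editing method (CRISPR for Pkd1 and TALEN for Pkd2) and genotype cannot be told apart.

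The libraries summed to between 25966273 and 28027792 normalized counts, which correspond to an estimated 23194317 to 30335543 reads. A normalized count is a read count divided by a scaling factor of its library. Pkd1 lay between 682 and 883 normalized counts in WT and between 30 and 49 in Pkd1-/-. Pkd2 was at a mean of 3971 in WT and 3986 in Pkd2-/-, where transcripts of the remaining exons are still counted. Of 18 collecting duct markers, Aqp2 and Aqp4 were at 0 in all 12 libraries, and the group means of Aqp3, Avpr2, Scnn1b and Elf5 were at most 5.75. The 18 together summed to between 71094 and 82853, most of it from the general epithelial genes Epcam, Krt18, Cdh1 and Krt8. Of the 15 that could be tested, 6 were called in Pkd1-/- (1 higher and 5 lower) and 11 in Pkd2-/- (8 higher and 3 lower). These shares of 40.0% and 73.3% stand beside 27.1% and 42.3% of all tested genes. Krt19 had means of 4472 in WT, 1329 in Pkd1-/- and 1409 in Pkd2-/-, Scnn1g of 928, 303 and 255, and Gata3 of 227, 48.5 and 354. The part of such differences between the lines in the values of the ciliary genes was not tested. The marker lists of endothelium, leukocytes and fibroblasts each summed to at most 141 in any library. The fibroblast list summed to between 32 and 58 in WT, between 89 and 103 in Pkd1-/- and between 15 and 141 in Pkd2-/-. Its marker Col3a1 was at 7, 3, 3 and 6 in WT and at 65, 69, 62 and 69 in Pkd1-/-. In Pkd2-/- Col3a1 was at 16, 0, 42 and 0.

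The primary cilium is a sensory antenna that stands on a modified centriole, the basal body. At its base the transition zone, a gate of Y-shaped links between microtubules and membrane, controls which proteins enter and leave. Its proteins form modules named after the diseases they cause when mutated, which are nephronophthisis, Meckel syndrome and Joubert syndrome. The BBSome is a coat-like complex that carries membrane proteins out of the cilium, and its loss causes Bardet-Biedl syndrome. Most of these disorders include cystic or fibrotic kidneys, and the polycystins themselves act at the cilium.

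In WT cells these genes were expressed at moderate levels, and a single one was close to 0. Their median was 150 normalized counts per kb of exon sequence, against 78.9 over all 18477 tested genes with a known length. Glis2, a zinc finger transcription factor mutated in nephronophthisis, had the highest level at 1890 per kb. It was followed by Arl3 (1210), a small GTPase that releases lipidated cargo inside the cilium, and Unc119b (974), a carrier of myristoylated cargo. Tmem237, a membrane protein of the transition zone, stood at 717, and Arl6, the GTPase that recruits the BBSome to membranes, at 632.

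Mks1, whose protein belongs to the Meckel module, held 1, 1, 3 and 0 normalized counts in the 4 WT libraries. It held 0, 4, 2 and 1 in Pkd1-/- and 0 in each Pkd2-/- library. These values are at or near the 3 counts that a value of 0 allows, so no fold change is given. The partners of Mks1 in the same complex, B9d1 and B9d2, stood at 398 and 224 per kb in WT. The 8 BBSome subunits, which form a single complex, lay between 76.0 per kb (Bbs7) and 250 per kb (Ttc8), a 3.28-fold range. Cep290, a large protein that links microtubules to the membrane, had the lowest level after Mks1 with 26.3 per kb.

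**Figure D1:**
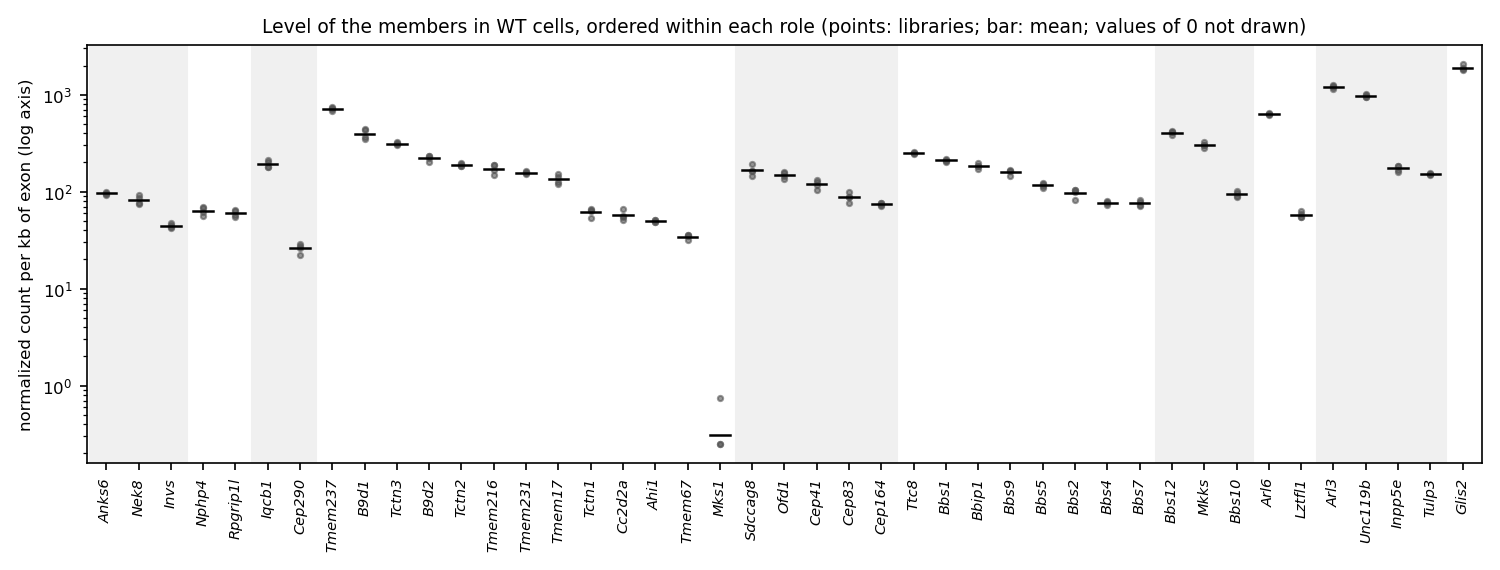
Level of 43 of the 44 genes in the 4 WT libraries (points) with the mean (bar), in normalized counts per kb of exon on a log axis, ordered from high to low within each role (shaded blocks). Glis2 stands highest at 1890 per kb and Mks1 lowest at 0.309 per kb, and the 8 BBSome subunits lie between 76.0 and 250 per kb.

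The promoters of some of these genes hold a sequence that the choice of genes did not use. RFX transcription factors, some of which switch on ciliary genes, bind the X-box, a pair of 6-base blocks separated by 0 to 3 bases. The X-box was searched on both strands of RefSeq promoters (GRCm38.p6) that reach from 250 bases before to 50 bases after the start of a gene. It was found in 9 of the 40 members with a promoter in this collection (22.5%), against 474 of all 27025 genes with a promoter (1.75%) and 210 of 11159 tested genes (1.88%). The 9 matches are shown because the X-box is the known control element of ciliary genes. Each is printed 5′ to 3′ on the strand of its gene, with the match in capitals and the flanking bases in lower case.
Ahi1 (chr10:20952560-20952589, plus strand): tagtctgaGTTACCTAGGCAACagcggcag
B9d2 (chr7:25680788-25680817, plus strand): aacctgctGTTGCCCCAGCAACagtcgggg
Bbs1 (chr19:4906605-4906634, minus strand): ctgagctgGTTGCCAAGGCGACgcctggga
Cep41 (chr6:30693858-30693888, minus strand): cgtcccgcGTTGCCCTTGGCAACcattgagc
Lztfl1 (chr9:123717767-123717797, minus strand): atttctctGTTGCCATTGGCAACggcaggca
Tctn1 (chr5:122264411-122264432, minus strand): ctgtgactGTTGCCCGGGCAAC
Tctn2 (chr5:124598679-124598708, plus strand): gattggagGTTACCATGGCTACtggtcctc
Tctn3 (chr19:40612351-40612379, minus strand): tcccagcgGTTGCCAGGTAACgggaacca
Tmem237 (chr1:59120102-59120131, minus strand): tagtcagcGTTGCCATGGCGACgcctccgg

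All 3 tectonic genes of the mouse, Tctn1, Tctn2 and Tctn3, carry a match, as do the transition zone genes Ahi1, B9d2 and Tmem237. The remaining matches are in Bbs1, in the centriolar gene Cep41 and in Lztfl1, a regulator of BBSome traffic. The matches lie between 164 bases before and 37 bases after the start of the gene. A match is a description of the letters in this window and no evidence that RFX proteins bind there.

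In Pkd1-/- cells these genes moved in both directions and by small amounts. A gene was called higher or lower when the Benjamini-Hochberg adjusted p of limma was under 0.05 over all tested genes. By this rule 19 of the 44 differed from WT (43.2%), 12 of them higher and 7 lower, while 27.1% of all tested genes were called, 13.6% higher and 13.5% lower. Over the 10649 genes whose 12 libraries averaged 100 normalized counts or more, a range that holds all members but Mks1, the share was 37.0%, with 18.6% higher and 18.4% lower. The members' share in Pkd1-/- was therefore near that of other well expressed genes. The log2 fold changes ranged from -0.56 to 0.69 with a median of 0.04, against 0.01 over all tested genes. None of the 44 reached a log2 fold change of 1, the further threshold used in the study, which 6.24% of all tested genes (2.96% higher and 3.28% lower) and 2.84% of the well expressed ones passed.

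In Pkd2-/- cells the balance was towards lower values. Here 27 of the 44 differed from WT (61.4%), 6 higher and 21 lower. Of all tested genes 42.3% were called, 20% higher and 22.3% lower, and of the well expressed genes 59.3%, so the total was again near the background. The directions were not evenly split, since 21 of 44 were lower where 29.1% of well expressed genes were lower, and 6 of 44 were higher where 30.2% were higher. The median log2 fold change was -0.18, against -0.01 over all tested genes and 0.00 over the well expressed ones, and 32 of the 44 values were below 0. A single called member, Tmem17, passed a log2 fold change of 1, against 9.62% of all tested genes (3.24% higher and 6.38% lower) and 5.68% of the well expressed ones. In RNA from whole cultures, fewer cells that express a gene and less RNA per cell cannot be told apart.

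The clones were also compared with each other, which tests the difference between them directly. Between Pkd2-/- and Pkd1-/-, 32 of the 44 differed (72.7%), 7 higher and 25 lower in Pkd2-/-, and the median difference was -0.24 on the log2 scale. The background was 46.3% of all tested genes, 21.9% higher and 24.3% lower, and 63.2% of the well expressed genes, 31.7% higher and 31.4% lower. Both mutants were compared with the same 4 WT libraries, so the comparisons with WT are not independent of each other, and their values are given side by side.

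**Figure D2:**
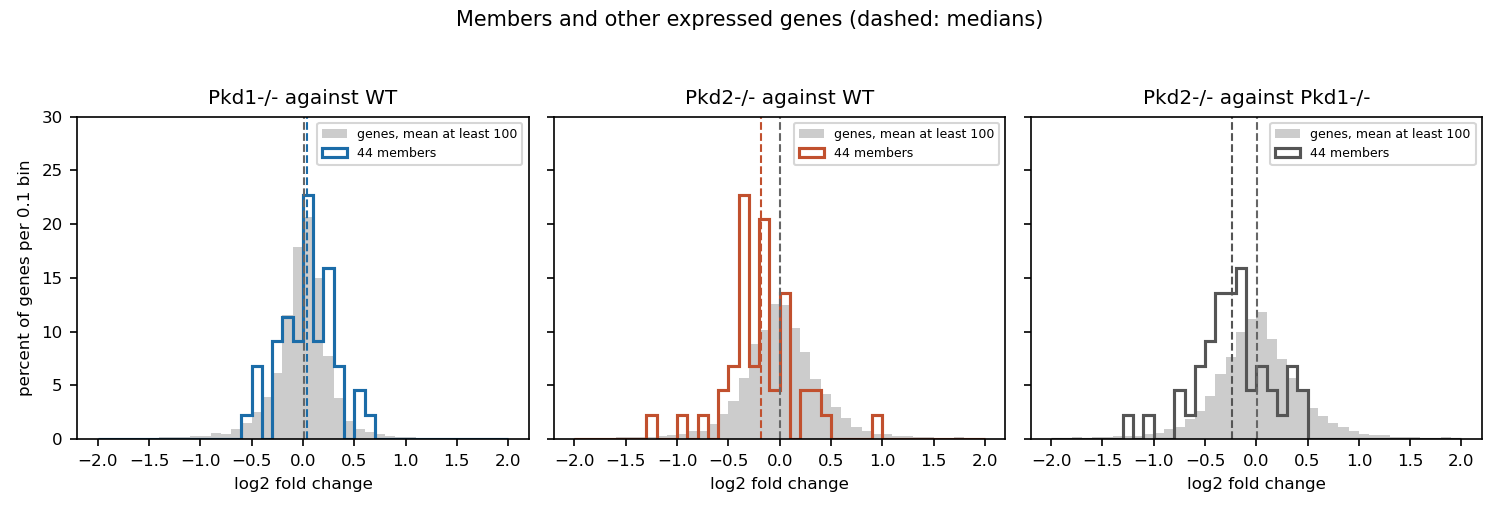
Distribution of log2 fold changes in bins of 0.1 for the 44 genes (lines) and for the 10649 genes that averaged 100 normalized counts or more (grey), as a percent of each set, for the 3 comparisons, with medians as dashed lines. In Pkd1-/- against WT the medians are 0.04 and 0.01, and in Pkd2-/- against WT they are -0.18 and 0.00, with the members' distribution to the left of the grey one.

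Groups that did not overlap, in which every library of one genotype lay above every library of the other, gave a like picture. In Pkd1-/- against WT this held for 21 members, 13 higher and 8 lower, while it held for 27.1% of all tested genes (13.5% higher and 13.6% lower) and 37.8% of the well expressed ones. In Pkd2-/- against WT it held for 24 members, 5 higher and 19 lower, beside 37.2% of all tested genes (17.4% higher and 19.8% lower) and 53.0% of the well expressed ones. Between the clones it held for 29 members, 7 higher and 22 lower in Pkd2-/-, beside 41.8% of all tested genes (19.8% higher and 22.0% lower) and 59.0% of the well expressed ones. With 4 libraries against 4, the two-sided exact permutation p of such a gene is 0.0286, the smallest the design allows. The libraries of a genotype were close to each other, with a median SD of 6.07% of the mean in WT, 6.76% in Pkd1-/- and 5.84% in Pkd2-/- over the 43 members other than Mks1.

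**Figure D3:**
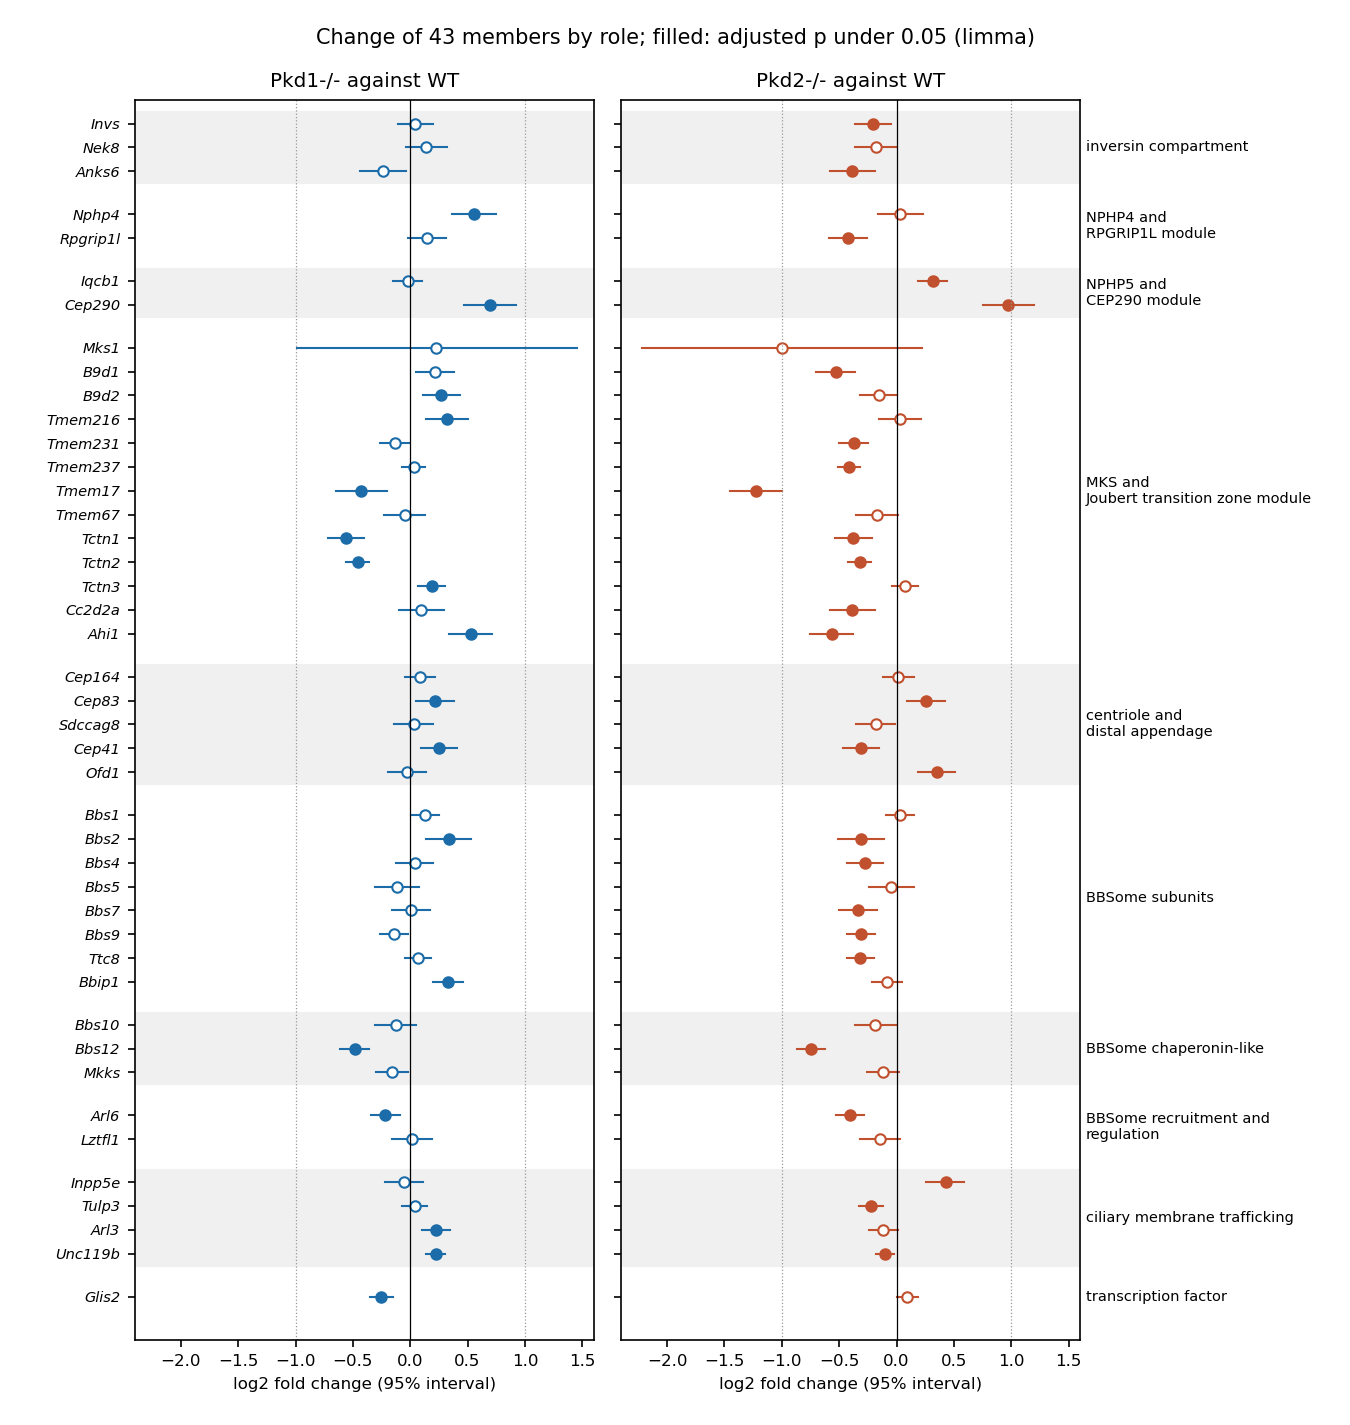
Log2 fold change of 43 of the 44 genes with its 95% interval, by role, in Pkd1-/- (left) and Pkd2-/- (right) against WT. Filled circles have an adjusted p under 0.05. Mks1, with very low counts, is an open circle in both panels. Tmem17 lies farthest to the left at -1.22 among the filled circles of Pkd2-/-, Cep290 lies farthest to the right at 0.69 and 0.98, and dotted lines mark a log2 fold change of 1 in either direction.

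The Meckel and Joubert module, the membrane gate of the transition zone, held the gene with the largest decrease. Of its 13 genes, 4 were higher and 3 lower in Pkd1-/-, and 8 were lower and 0 higher in Pkd2-/-. The called shares of 53.8% and 61.5% stand beside 37.0% and 59.3% of well expressed genes, of which 29.1% were lower in Pkd2-/-. The medians of the 13 log2 fold changes were 0.09 for Pkd1-/- and -0.38 for Pkd2-/-. In the direct comparison 8 were lower and 1 higher in Pkd2-/- than in Pkd1-/-. This share of 69.2% stands beside 63.2% of well expressed genes, 31.4% lower and 31.7% higher.

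Tmem17, a 4-pass membrane protein of the gate, was measured at 223, 236, 189 and 199 normalized counts in WT. It was at 161, 141, 164 and 161 in Pkd1-/- and at 85, 87, 93 and 94 in Pkd2-/-. The 3 genotypes did not overlap, with WT highest and Pkd2-/- lowest. Tmem17 fell 2.34-fold in Pkd2-/-, from 212 ± 21.6 to 89.8 ± 4.43 (SD, n = 4), with a log2 fold change of -1.22 ± 0.11 (SE) and an adjusted p of 2.56e-08. In Pkd1-/- it fell by 0.43 ± 0.11 (log2, adjusted p = 0.00522). Pkd2-/- was also below Pkd1-/-, by a log2 fold change of -0.80 (adjusted p = 5.2e-06).

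Ahi1, which encodes the Joubert syndrome protein jouberin, moved in opposite directions. It was at 343, 358, 356 and 340 in WT, at 503, 534, 456 and 528 in Pkd1-/- and at 220, 223, 223 and 284 in Pkd2-/-. WT lay between the mutants with no overlap, and 1 Pkd2-/- library stood above the other 3. Ahi1 rose by 0.53 ± 0.09 in Pkd1-/- (log2, adjusted p = 0.000142) and fell by 0.56 ± 0.09 in Pkd2-/- (adjusted p = 3.87e-05). The difference between the clones was -1.09 ± 0.09 (adjusted p = 6.6e-09), which is 2.13-fold. Ahi1 was the only called member past a log2 fold change of 1 in this comparison. Of all tested genes 11.8% were called and past it (4.53% higher and 7.23% lower), and 6.97% of the well expressed ones. Without Pkd2-/- replicate 4 the difference was -1.18.

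The tectonics are secreted and membrane-bound proteins that assemble with the Meckel complex. Tctn1 was at 439, 520, 536 and 548 in WT, at 350, 335, 337 and 360 in Pkd1-/- and at 384, 377, 414 and 393 in Pkd2-/-. Tctn2 was at 1518, 1652, 1522 and 1623 in WT, at 1142, 1130, 1149 and 1171 in Pkd1-/- and at 1272, 1252, 1256 and 1278 in Pkd2-/-. For both genes every mutant library lay below every WT library, and the Pkd1-/- libraries lay lowest. Tctn1 shares 19.0% of its exon bases with Hvcn1 on the opposite strand, which was at a mean of 7.25 normalized counts in WT.

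Tctn1 fell by 0.56 ± 0.08 in Pkd1-/- (log2, adjusted p = 1.76e-05) and by 0.38 ± 0.08 in Pkd2-/- (adjusted p = 0.000552). Tctn2 fell by 0.46 ± 0.05 (adjusted p = 4.87e-07) and by 0.32 ± 0.05 (adjusted p = 2.04e-05). Tctn3, on another chromosome, was higher in Pkd1-/- by a log2 fold change of 0.19 (adjusted p = 0.0134), and its value in Pkd2-/- was 0.08 (adjusted p = 0.283). Tctn2 was slightly higher in Pkd2-/- than in Pkd1-/- (0.14, adjusted p = 0.0213), a call that was lost without Pkd1-/- replicate 2 (0.13, adjusted p = 0.0544).

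B9d1, which encodes a B9 domain protein of the Meckel complex, was at 589, 702, 684 and 563 in WT. It was at 715, 711, 761 and 748 in Pkd1-/- and at 472, 450, 444 and 387 in Pkd2-/-. B9d1 fell by 0.53 ± 0.08 in Pkd2-/- (log2, adjusted p = 2.46e-05) with no overlap. In Pkd1-/- its value was 0.22 ± 0.08 (adjusted p = 0.0544), which was not called, although all 4 libraries lay above WT. B9d2 was higher in Pkd1-/- (0.27, adjusted p = 0.0122) and had a value of -0.16 in Pkd2-/- (adjusted p = 0.113). For both, Pkd2-/- was below Pkd1-/-, by -0.75 for B9d1 (adjusted p = 2.97e-07) and by -0.43 for B9d2 (adjusted p = 0.00013).

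The other membrane proteins of this module were lower or not called in Pkd2-/-. Tmem231 was lower in Pkd2-/- by -0.37, Tmem237 by -0.42 and Cc2d2a, which encodes a C2 domain scaffold, by -0.39, with adjusted p values between 5.63e-07 and 0.00203. None of these 3 was called in Pkd1-/-, where their values were -0.14, 0.03 and 0.09, and each was below Pkd1-/- in the direct comparison. Tmem216 was higher in Pkd1-/- (0.32, adjusted p = 0.00777) with a value of 0.03 in Pkd2-/-. Tmem67, which encodes the receptor-like protein meckelin, was not called in any comparison, with values of -0.05, -0.17 and -0.12.

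**Figure D4:**
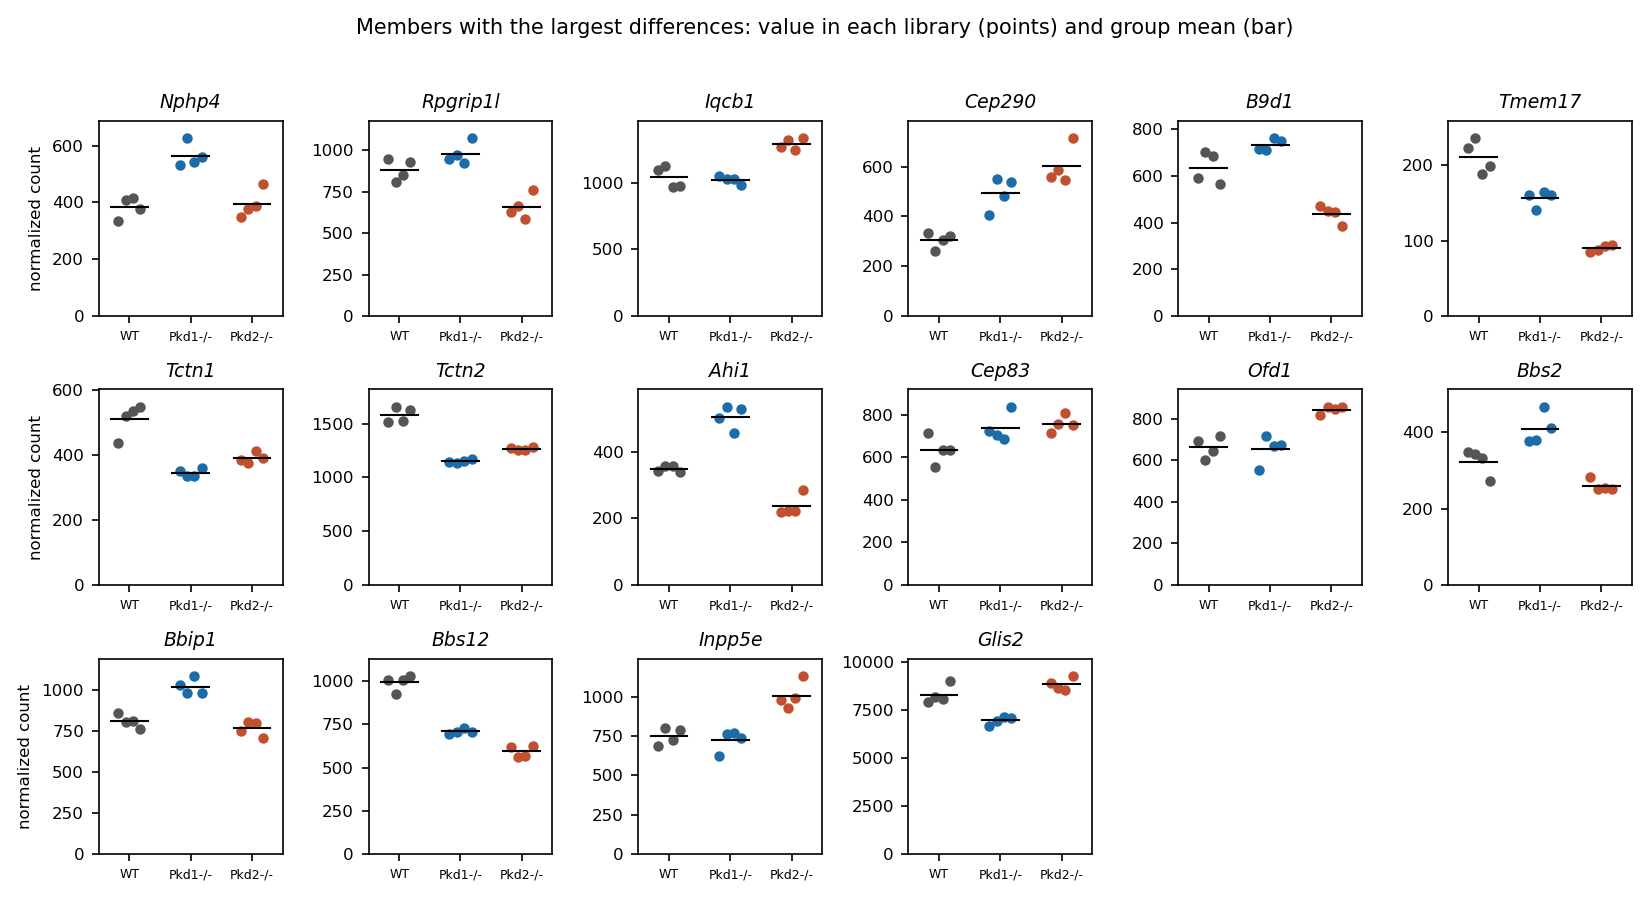
Normalized counts of 16 genes in every library (points) with the group mean (bar), each panel with its own axis from 0. Tmem17 steps down from WT to Pkd1-/- to Pkd2-/-, Ahi1 lies above WT in Pkd1-/- and below it in Pkd2-/-, and Cep290 lies above WT in both.

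Cep290 was the member that rose most in either clone. With Iqcb1 it forms the NPHP5 and CEP290 module, which anchors the transition zone at the basal body. Cep290 was at 332, 259, 307 and 322 in WT, at 407, 550, 481 and 540 in Pkd1-/- and at 560, 586, 546 and 714 in Pkd2-/-. All 8 mutant libraries were above all WT libraries, and the mutants overlapped each other.

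Cep290 rose 1.62-fold in Pkd1-/- (log2 0.69 ± 0.11, adjusted p = 6.44e-05) and 1.97-fold in Pkd2-/- (log2 0.98 ± 0.11, adjusted p = 5.32e-07), from a WT mean of 305 ± 32.3 (SD, n = 4). The clones differed by 0.28 (adjusted p = 0.0372). That call was lost without Pkd1-/- replicate 1 or 3 or Pkd2-/- replicate 2 or 4, with adjusted p between 0.0583 and 0.146. On the opposite strand, 4930430F08Rik shares 7.58% of the exon bases of Cep290. It had log2 fold changes of 0.43 in Pkd1-/- and -0.42 in Pkd2-/-. Whether the counting used strand is not given in the sources used here.

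Iqcb1, which encodes nephrocystin-5, was at 1094, 1131, 966 and 974 in WT and at 1051, 1026, 1028 and 986 in Pkd1-/-. In Pkd2-/- it was at 1271, 1324, 1246 and 1336, above all other libraries. It rose by a log2 fold change of 0.32 ± 0.06 in Pkd2-/- (adjusted p = 0.000217), and its value in Pkd1-/- was -0.02 (adjusted p = 0.831).

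The NPHP4 and RPGRIP1L module, a scaffold between the axoneme and the gate, differed between the clones in both of its genes. Between the clones 63.2% of well expressed genes differed. Nphp4 was at 336, 409, 417 and 377 in WT, at 532, 626, 541 and 559 in Pkd1-/- and at 348, 377, 388 and 466 in Pkd2-/-. The Pkd1-/- libraries stood above all others, while WT and Pkd2-/- overlapped. Nphp4 rose by 0.55 ± 0.09 in Pkd1-/- (log2, adjusted p = 0.00016), and its value in Pkd2-/- was 0.03 with a 95% interval from -0.16 to 0.23.

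Rpgrip1l was at 947, 806, 852 and 930 in WT, at 947, 970, 921 and 1073 in Pkd1-/- and at 629, 661, 586 and 758 in Pkd2-/-. Here the Pkd2-/- libraries stood below all others. It fell by 0.43 ± 0.08 in Pkd2-/- (log2, adjusted p = 0.000199), with a value of 0.15 in Pkd1-/- (adjusted p = 0.192). Pkd2-/- was below Pkd1-/- by -0.52 for Nphp4 (adjusted p = 0.000135) and by -0.57 for Rpgrip1l (adjusted p = 6.31e-06).

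Of the inversin compartment, a segment next to the transition zone, none of the 3 genes was called in Pkd1-/- and 2 were lower in Pkd2-/-. The 66.7% called in Pkd2-/- stand beside 59.3% of well expressed genes, of which 29.1% were lower. In Pkd1-/- 37.0% of well expressed genes were called. Anks6, which encodes an ankyrin repeat partner of NEK8, was lower by -0.39 (adjusted p = 0.00244), and its value in Pkd1-/- was -0.24 (adjusted p = 0.067), the only one of the 3 under an unadjusted limma threshold of 0.05. Invs, which encodes inversin, was lower by -0.20 (adjusted p = 0.0326). The call for Invs was lost without WT replicate 1 or 2 or Pkd2-/- replicate 1 or 3, with adjusted p from 0.063 to 0.1. Nek8, the kinase of this compartment, had a value of -0.18 (adjusted p = 0.113) and was below Pkd1-/- by -0.32 (adjusted p = 0.00539).

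Of the 8 BBSome subunits, 5 were lower in Pkd2-/- and 3 were not called, a share of 62.5% beside 59.3% of well expressed genes called in either direction and 29.1% called lower. In Pkd1-/- 2 were higher and none lower (25%, beside 37.0% of well expressed genes). Between the clones 6 were lower in Pkd2-/- (75%, beside 63.2%). Their medians on the log2 scale were 0.05, -0.29 and -0.33. The 5 that were lower in Pkd2-/- lay in a narrow range, with Bbs7 at -0.34, Ttc8 at -0.32, Bbs2 and Bbs9 at -0.31 and Bbs4 at -0.27. Bbs1, Bbs5 and Bbip1 were not called in Pkd2-/-, with values of 0.03, -0.05 and -0.08.

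Bbs2, part of the BBSome core, was at 348, 342, 331 and 271 in WT, at 376, 379, 465 and 410 in Pkd1-/- and at 282, 252, 254 and 251 in Pkd2-/-. The lowest WT library overlapped the Pkd2-/- range. Bbs2 was higher in Pkd1-/- by 0.34 ± 0.09 (log2, adjusted p = 0.0117) and lower in Pkd2-/- by -0.31 ± 0.09 (adjusted p = 0.0128), and the clones differed by -0.64 (adjusted p = 1.43e-05). The increase was not called without Pkd1-/- replicate 3 (0.27, adjusted p = 0.0544).

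Bbip1, the smallest subunit, was at 862, 803, 813 and 762 in WT, at 1032, 978, 1083 and 979 in Pkd1-/- and at 750, 807, 801 and 705 in Pkd2-/-. The Pkd1-/- libraries stood above all others. Bbip1 rose by 0.33 ± 0.06 in Pkd1-/- (log2, adjusted p = 0.000468) and was lower in Pkd2-/- than in Pkd1-/- by -0.41 (adjusted p = 1.99e-05).

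The BBSome is assembled with the help of 3 chaperonin-like proteins, and only the gene of 1 of them was called. This share of 33.3% in each mutant stands beside 37.0% of well expressed genes in Pkd1-/- and 59.3% in Pkd2-/-. Bbs12 was at 1009, 928, 1005 and 1028 in WT, at 692, 708, 731 and 708 in Pkd1-/- and at 618, 560, 566 and 627 in Pkd2-/-. The 3 genotypes did not overlap. Bbs12 fell by 0.48 ± 0.06 in Pkd1-/- (log2, adjusted p = 4.49e-06) and by 0.74 ± 0.06 in Pkd2-/- (adjusted p = 7.03e-09), which is 1.4-fold and 1.67-fold. The other two, Bbs10 and Mkks, had values of -0.13 and -0.16 in Pkd1-/- and of -0.18 and -0.12 in Pkd2-/-, with adjusted p between 0.0956 and 0.315.

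Arl6, which brings the assembled BBSome to the membrane, fell by 0.22 in Pkd1-/- (log2, adjusted p = 0.0114) and by 0.40 in Pkd2-/- (adjusted p = 2.32e-05), with no overlap with WT in either. Lztfl1, which holds the BBSome outside the cilium, was not called, with values of 0.02 and -0.14.

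Genes of membrane protein traffic showed no common direction. Of the 5, 2 were higher and 1 lower in Pkd1-/-, and 2 were higher and 2 lower in Pkd2-/-. The called shares were 60% and 80%, beside 37.0% and 59.3% of well expressed genes. Between the clones, 2 were higher and 3 lower in Pkd2-/- (100%, beside 63.2% of well expressed genes).

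Inpp5e, a phosphoinositide phosphatase that acts in the ciliary membrane, was at 685, 800, 724 and 786 in WT, at 623, 762, 768 and 741 in Pkd1-/- and at 979, 930, 993 and 1131 in Pkd2-/-. The Pkd2-/- libraries stood above all others. Inpp5e rose by 0.43 ± 0.08 in Pkd2-/- (log2, adjusted p = 0.000198), with a value of -0.05 in Pkd1-/-. It shares 20.3% of its exon bases with Pmpca on the opposite strand, whose log2 fold change in Pkd2-/- was 0.55 (adjusted p = 7.76e-09). With counting that ignores strand, reads of the shared bases cannot be told apart.

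Tulp3, which delivers G protein-coupled receptors to the cilium, was lower in Pkd2-/- by -0.23 (adjusted p = 0.00144) with a value of 0.04 in Pkd1-/-. Arl3 and Unc119b were each higher in Pkd1-/- by 0.22, with adjusted p of 0.00746 and 0.000256. Both were lower in Pkd2-/- than in Pkd1-/-, by -0.34 and -0.32. Unc119b was also lower than WT in Pkd2-/- by -0.10 (adjusted p = 0.0442). That call was lost in 8 of the 12 fits that left out 1 library, which were WT replicates 3 and 4, Pkd1-/- replicates 2, 3 and 4 and Pkd2-/- replicates 1, 2 and 3. The adjusted p was then up to 0.124.

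The centriole and distal appendage genes dock the basal body at the membrane. Cep83, a distal appendage gene, was at 713, 555, 634 and 635 in WT, at 721, 705, 687 and 834 in Pkd1-/- and at 714, 754, 807 and 749 in Pkd2-/-. It was called higher in Pkd2-/- (0.26 ± 0.08, adjusted p = 0.0123), where the highest WT library lay 1 count below the lowest Pkd2-/- library. It was also called in Pkd1-/- (0.22 ± 0.08, adjusted p = 0.0474), where the groups overlapped. WT replicate 2 decided both calls, with adjusted p of 0.0539 and 0.163 without it. The call in Pkd1-/- was also lost without WT replicate 3 or 4, Pkd1-/- replicate 1, 2 or 4, or Pkd2-/- replicate 1 or 2, with adjusted p up to 0.172.

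Ofd1, on the X chromosome and mutated in oral-facial-digital syndrome, was at 692, 602, 643 and 715 in WT, at 553, 717, 669 and 674 in Pkd1-/- and at 819, 854, 848 and 855 in Pkd2-/-. The Pkd2-/- libraries stood above all others. Ofd1 rose by 0.35 ± 0.08 in Pkd2-/- (log2, adjusted p = 0.000984), with a value of -0.02 in Pkd1-/-. Cep41 was higher in Pkd1-/- (0.25, adjusted p = 0.021) and lower in Pkd2-/- (-0.31, adjusted p = 0.00308). The call in Pkd1-/- was lost without WT replicate 4 or Pkd1-/- replicate 3 or 4, with adjusted p up to 0.0854. Cep164 was not called in any comparison, with values from -0.07 to 0.08. Sdccag8 was called only between the clones (-0.22, adjusted p = 0.0374), a call lost without replicate 2, 3 or 4 of either clone, with adjusted p up to 0.146.

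Glis2, the most abundant member in WT, was at 7875, 8168, 8081 and 8972 in WT, at 6676, 6923, 7125 and 7070 in Pkd1-/- and at 8893, 8642, 8527 and 9239 in Pkd2-/-. All Pkd1-/- libraries lay below the others. Glis2 fell by 0.25 ± 0.05 in Pkd1-/- (log2, adjusted p = 0.000445), had a value of 0.09 in Pkd2-/- (adjusted p = 0.121) and was higher in Pkd2-/- than in Pkd1-/- by 0.34 (adjusted p = 5.91e-06). Pam16, which shares 10.4% of the exon bases of Glis2 on the opposite strand, had a value of 0.07 in Pkd1-/- (adjusted p = 0.509).

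The 9 members with an X-box are spread over the directions in Pkd1-/-, with 4 higher, 2 lower and a median change of 0.13. In Pkd2-/- 5 of the 9 were lower and 0 higher, with a median of -0.31. The 31 members with a promoter and no match had 8 higher and 4 lower in Pkd1-/-, with a median of 0.04. They had 15 lower and 6 higher in Pkd2-/-, with a median of -0.18. Between the clones, 4 of the 9 were lower and 1 higher in Pkd2-/- (median -0.16). Of the 31, 20 were lower and 5 higher (median -0.26). Of well expressed genes, 29.1% were lower and 30.2% higher in Pkd2-/- against WT, and 31.4% and 31.7% between the clones. The difference between these sets was not tested.

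Since each mutant is 1 clone, each member was set beside the nearest genes that averaged 10 normalized counts or more, 10 on each side on its chromosome. Lztfl1, near a chromosome end, had 13 such neighbors, Mks1 was too low to be placed, and the other 42 members had 20. For Tctn1 and Tctn2, which lie on chromosome 5, the neighbors were lower in Pkd1-/- as well. Their medians were -0.36 and -0.40, and 17 and 16 of the 20 were called lower. In Pkd2-/-, where both genes were also lower, the neighbor medians were -0.08 and 0.14. There 8 neighbors of Tctn1 were called lower and 5 higher, and 2 of Tctn2 lower and 9 higher. For Inpp5e on chromosome 2, the neighbors had a median of 0.52 in Pkd2-/-, and 14 of 20 were called higher.

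The same direction in member and neighbors was seen for some other called members in Pkd1-/-. The neighbor medians there were -0.29 for Arl6, 0.21 for Arl3, 0.22 for Unc119b and 0.27 for Tctn3, with 11 of 20 called lower for Arl6 and 11, 9 and 9 of 20 called higher for the other three. For Bbip1 in Pkd1-/- the median was 0.19, with 10 of 20 called higher. In Pkd2-/- the neighbors of Unc119b had a median of -0.22, with 13 of 20 called lower. The neighbors of Tmem231 had a median of -0.20 there, with 10 of 20 called lower. For Arl6, which was lower in Pkd2-/- as well, the neighbor median there was 0.06, with 3 of 20 called lower and 8 higher.

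The neighbors of Tmem17 and Bbs12 were near 0, with medians of 0.05 and -0.05 in Pkd1-/- and of 0.10 and 0.07 in Pkd2-/-. Those of Ahi1 had medians of 0.00 in Pkd1-/- and -0.23 in Pkd2-/-. There 8 of 20 were called lower, beside 29.1% of well expressed genes. Those of Cep290 had medians of 0.19 in Pkd1-/-, where 7 of 20 were called higher, and 0.02 in Pkd2-/-. Bbip1 went the other way in Pkd2-/-, with its own value at -0.08 and 18 of its 20 neighbors called higher (median 0.44). Called members also went against their neighbors there. For Ofd1 (0.35) the neighbor median was -0.15, with 10 of 20 called lower and 2 higher. For Bbs2 (-0.31) it was 0.24, with 11 of 20 called higher and 2 lower. Of the 44 members, 15 share exon bases with another listed gene and 29 share none. The part of the surrounding region in the value of any member was not tested.

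**Figure D5:**
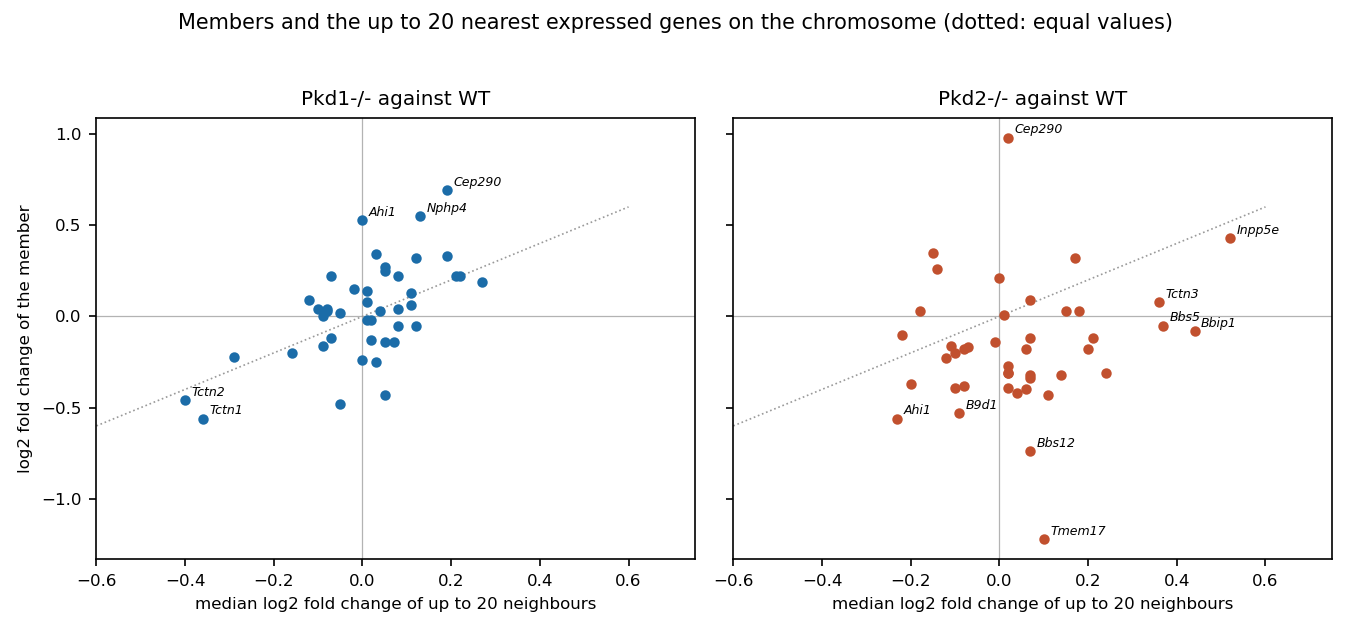
Log2 fold change of each member (vertical axis) against the median log2 fold change of its 20 nearest expressed genes (13 for Lztfl1, horizontal axis), in Pkd1-/- (left) and Pkd2-/- (right) against WT, for the 43 members other than Mks1, with equal values on the dotted line. Tctn1 and Tctn2 lie at neighbor medians of -0.36 and -0.40 in Pkd1-/- and Inpp5e at 0.52 in Pkd2-/-, while Tmem17 and Cep290 lie far from the line in Pkd2-/-.

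Other genes of the same pathways were read from lists of 71 ciliary genes, of which 67 could be tested. In Pkd1-/- 13 were higher and 6 lower, and in Pkd2-/- 13 were higher and 22 lower. Between the clones 12 were higher and 28 lower in Pkd2-/-. The called shares were 28.4%, 52.2% and 59.7%, beside 37.0%, 59.3% and 63.2% of well expressed genes, and the medians were 0.02, -0.08 and -0.07. For the 21 further transition zone genes tested, 4 were higher and 1 lower in Pkd1-/-, and 3 were higher and 8 lower in Pkd2-/-. Of 5 further Bardet-Biedl genes, 3 were lower in Pkd2-/-. The 15 further distal appendage and ciliogenesis genes that could be tested had 6 higher and 1 lower in Pkd1-/- and 5 higher and 3 lower in Pkd2-/-. The 20 further trafficking genes had 3 higher and 3 lower, then 4 higher and 7 lower, and the 6 further nephronophthisis genes had 1 lower, then 1 higher and 1 lower.

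Among these 67 genes, 3 passed both thresholds of the study in a mutant. Dcdc2a, a nephronophthisis gene whose protein sits along the ciliary microtubules, was at 61, 64, 81 and 86 in WT and at 50, 51, 42 and 64 in Pkd2-/-. In Pkd1-/- it was at 0, 2, 0 and 5, near the floor of 3 counts. Its log2 fold change of -5.15 in Pkd1-/- (adjusted p = 3.53e-08) depends on the added count of 1. Cys1, which encodes the ciliary membrane protein cystin, fell by 1.41 ± 0.08 in Pkd1-/- (log2, adjusted p = 1.07e-10), from 969 ± 117 to 363 ± 24.2 (SD, n = 4). Kif13b, a kinesin gene, rose by 1.26 ± 0.15 in Pkd2-/- (log2, adjusted p = 1.54e-06), from 900 ± 160 to 2152 ± 338 (SD, n = 4).

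Outside the ciliary lists, 10 transcription factor genes were read, the RFX family with its partners and Foxj1. Not each of them is taken here as a regulator of ciliary genes, and 8 could be tested. In Pkd1-/- 1 was higher and 2 lower, and in Pkd2-/- 1 was higher and 4 lower. The called shares of 37.5% and 62.5% stand beside 37.0% and 59.3% of well expressed genes. Foxj1, the regulator of motile cilia, was at 685, 667, 777 and 773 in WT, at 200, 184, 159 and 182 in Pkd1-/- and at 972, 850, 898 and 769 in Pkd2-/-. It fell 3.99-fold in Pkd1-/- (log2 -2.00 ± 0.09, adjusted p = 3.35e-12) and rose by 0.26 in Pkd2-/- (adjusted p = 0.0203), where 1 library overlapped WT. Among 14 markers of multiciliated cells, which include Foxj1, 5 were at 0 in all 12 libraries. Their sum lay between 2243 and 2562 in WT, between 1616 and 1682 in Pkd1-/- and between 2772 and 3011 in Pkd2-/-. Nearly all of it came from Foxj1 and Cfap43, the latter with means of 1701, 1451 and 2013, and each of the other 12 had group means of at most 15.8.

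Cilia are taken down when cells divide, so markers of proliferation were summed as well. The 14 markers summed to between 95842 and 102666 in WT, between 111890 and 115372 in Pkd1-/- and between 104913 and 110233 in Pkd2-/-. Against WT, 11 of the 14 were called higher and 0 lower in Pkd1-/- (median 0.21, log2). Directions were mixed in Pkd2-/-, where 6 were called higher and 2 lower (median 0.03) and 6 of the 14 values lay below 0. Called in either direction were 78.6% and 57.1%, beside 37.0% and 59.3% of well expressed genes. The part of cell division in the values of the ciliary genes was not tested.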

How the data were processed

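RNA of 12 mIMCD3 cultures, 4 each of WT, Pkd1-/- and Pkd2-/-, was sequenced by the authors, who used Trim Galore for trimming, HISAT2 for alignment to GRCm38, htseq-count for counts of Ensembl genes and DESeq2 for a size factor per library, by which the counts were divided. The deposited values are these normalized counts rounded to whole numbers, which are treated as a score and not as read counts, so count models were not used. One read is worth between 0.8855 and 1.1275 normalized counts. Annotation release and strand setting are not given in the sources used here. All sample columns were used.

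Symbols, positions and exon lengths were taken from GENCODE M21, which holds 47223 of the 47642 identifiers. Values were transformed to log2(normalized count + 1), and genes with a mean of at least 1 were tested with limma 3.58.1 (lmFit and eBayes with a variance trend) in R 4.3.3. All 12 libraries entered 1 model without covariates. Tests were two-sided, and adjusted p is that of Benjamini and Hochberg over all tested genes of a comparison. Fold changes are on this log2 scale, which understates changes of low genes. The test was run on simulated counts with true log2 changes of 0.5, 1 and 2 in 83, 62 and 55 genes. Of these, 83.1%, 95.2% and 100% were recovered. Every simulated gene had the same spread setting, and far more genes were called in the real data. The recovered shares therefore do not give the recovery in the real data. Smaller changes, as in many members here, were not simulated, so their recovery is not known. Tables and plots used Python 3.11.15 with pandas 2.3.3, numpy 2.4.6, scipy 1.17.1 and matplotlib 3.10.9.

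The genes and lists were chosen with earlier results of these data known. Values per library are given for called members past a log2 fold change of 1. They are also given for the 5 largest increases and the 5 largest decreases in each comparison among called members whose groups did not overlap. Genes outside the 44 are named where they passed an adjusted p of 0.05 and a log2 fold change of 1 in a mutant, except some markers with very low counts. Genes that overlap a member, and the markers Aqp2, Aqp3, Aqp4, Avpr2, Scnn1b, Epcam, Krt18, Cdh1, Krt8 and Cfap43, fall outside this rule and were named after their values were seen. One of the 44 members is counted but not reported by name here. A value of 0 allows up to 3 counts per library, for counting error only.

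Alternatives were an added count of 0.5 or 5, a minimum mean of 10 or none, other scalings, a replicate block, only the 2 genotypes compared, the fold threshold of the study, and leaving out each library.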

Additional observations from a re-analysis of the deposited data

Results flagged for a closer look

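In 4 members named here the clones moved in opposite directions from WT, and the difference was tested as Pkd2-/- against Pkd1-/- with limma. The difference was -1.09 for Ahi1 (0.53 in Pkd1-/- and -0.56 in Pkd2-/-, adjusted p = 6.6e-09) and -0.64 for Bbs2 (0.34 and -0.31, adjusted p = 1.43e-05). It was -0.56 for Cep41 (0.25 and -0.31, adjusted p = 7.11e-06) and -0.32 for Unc119b (0.22 and -0.10, adjusted p = 1.43e-06). All values are log2 fold changes.

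A library stood apart from the other 3 of its genotype in 7 of 132 groups examined, by a gap above Dixon's 95% critical value as a share of the range of the group. Chance gives such a gap in about 1 of 20 groups. The gap was 0.953 of the range for Ahi1 in Pkd2-/- (284 against 220 to 223), 0.946 for Arl3 in Pkd2-/- (2525 against 2859 to 2878) and 0.929 for Lztfl1 in Pkd2-/- (663 against 550 to 558). It was 0.903 for Bbs2 in Pkd2-/- (282 against 251 to 254), 0.887 for Ttc8 in Pkd2-/- (707 against 770 to 778), 0.87 for Tmem17 in Pkd1-/- (141 against 161 to 164) and 0.838 for B9d2 in Pkd1-/- (368 against 399 to 405). In 3 of these, Ahi1, Arl3 and Ttc8, Pkd2-/- replicate 4 was the one apart.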

How the results depend on the processing

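Over the 20 alternatives, 0 of the 38 called log2 fold changes of the members with values per library changed sign, and 739 of 760 values stayed on the same side of the threshold. Of all 78 called member results, 11 were lost under at least 1 alternative. Of these 11, 9 are given with the libraries concerned beside their values, and the differences of Bbs9 and Arl6 between the clones were lost without Pkd1-/- replicate 2 (adjusted p = 0.0731) and Pkd1-/- replicate 1 (0.0645). The Cep290 difference between the clones was also lost under upper quartile scaling (adjusted p = 0.0624) and in the fit of only the 2 genotypes compared (0.0578), and that of Tctn2 under upper quartile scaling (0.116). Cep83 in Pkd1-/- was lost without a filter (0.0583), under trimmed mean scaling (0.0592) and in the fit of 2 genotypes (0.0579). Unc119b in Pkd2-/- was lost without a filter (0.0585), in the fit of 2 genotypes (0.0586) and with the replicate block (0.0516). With 1 library left out, 18 to 21 members were called in Pkd1-/- against WT, 25 to 28 in Pkd2-/- against WT and 29 to 33 between the clones. The medians then lay between 0.017 and 0.076, between -0.216 and -0.178 and between -0.266 and -0.213. Upper quartile scaling gave medians of -0.214 in Pkd2-/- against WT and -0.284 between the clones. This scaling also moved the medians over all tested genes, from -0.006 to -0.036 and from -0.008 to -0.049. The part of that general shift in the members' medians was not tested. With a log2 fold change of at least 1 required as well, 0, 1 and 1 members were called, by construction of the stricter rule. With a replicate block, 21, 26 and 32 members were called. Libraries with the same number correlated between genotypes with r from -0.073 to 0.2, so the numbers do not pair the samples. Low counts limit Mks1 and, in Pkd1-/-, Dcdc2a.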
